A study of Mus musculus with 10 samples.

Results

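The sarcomeric myosin heavy chain genes Myh1, Myh2, Myh3, Myh4, Myh6, Myh7 and Myh8 were followed through 4 RNA-seq comparisons of C2C12 cells, a mouse myoblast line that fuses into myotubes when serum is lowered. They were chosen by gene name, as the 7 rows with these symbols among the 23417 genes of each Huwe1 table and the 23431 genes of the USP10 table. The rule uses no measured value, but the genes were chosen with earlier results of these data known. In 3 tables the cells carried a short hairpin against Huwe1, a ubiquitin ligase, and in the fourth they overexpressed USP10, a deubiquitinase. The study asked how these enzymes, which act on the TATA-binding protein TBP, bear on muscle differentiation.

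The day 0 comparison set wild-type C2C12 myoblasts in growth medium against myoblasts of 2 Huwe1 hairpins, 1 library each. The day 6 comparison used wild-type cells and cells with the same 2 hairpins after 6 days in differentiation medium, the virus having been introduced and selected in myoblasts before differentiation. In the day 8 comparison cells were first allowed to differentiate, were infected on day 4 with a non-targeting control virus or with 2 other Huwe1 hairpins, and were selected with puromycin until day 8. The USP10 comparison set a day 6 control against a stable C2C12 line with USP10 cDNA driven by the EF1a promoter, also at day 6. The deposited tables give 1 value per gene and condition, so the 2 hairpin libraries of each Huwe1 table are pooled in 1 column. No difference below has a replicate check, no test across samples was possible, and every fold is a description of these columns.

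Myosin heavy chains are the motor proteins of the thick filament. Their heads bind actin and hydrolyse ATP, and their coiled-coil tails pack into the filament shaft, with a pair of light chains on each neck. In skeletal muscle the genes are used in succession: Myh3 encodes the embryonic chain and Myh8 the perinatal chain, after which fast fibers switch to Myh2 (type IIa), Myh1 (type IIx) or Myh4 (type IIb), while slow fibers use Myh7, which is also the beta chain of the heart. Myh6, the alpha cardiac chain, lies beside Myh7. The C2C12 line is known to pass through part of this succession in culture.

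The 5 developmental and fast genes formed a cluster on chromosome 11 of the mm10 build (GRCm38), in the order Myh3 (chr11:67078300-67102291), Myh2 (chr11:67171027-67197517), Myh1 (chr11:67200114-67224575), Myh4 (chr11:67237812-67260447) and Myh8 (chr11:67277124-67308633), all on the plus strand. The cardiac and slow genes Myh6 (chr14:54941921-54966607) and Myh7 (chr14:54968787-54994549) lay side by side on the minus strand of chromosome 14. These positions are those of the deposited tables, and the strands and exons below come from the GENCODE M21 annotation.

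Because neighbouring genes of this family are near-identical over long stretches, reads can be assigned to the wrong member, and the sequences that decide this are shown here. Between Myh1 and Myh2 the coding sequences were 91.1% identical, and the longest exact run shared by their transcripts was 268 bases, in coding exons 23 and 24 of both genes (chr11:67213219-67213597 in Myh1, an interval that includes the intron between them). Between Myh6 and Myh7 the coding sequences were 91.7% identical, and the longest shared run was 245 bases, in exons 30 and 31 of Myh6 and 32 and 33 of Myh7 (chr14:54948327-54948725 in Myh6). In the transcript sequences below the shared run is in capitals and the 15 bases on either side are in lower case.
Myh1, run shared with Myh2: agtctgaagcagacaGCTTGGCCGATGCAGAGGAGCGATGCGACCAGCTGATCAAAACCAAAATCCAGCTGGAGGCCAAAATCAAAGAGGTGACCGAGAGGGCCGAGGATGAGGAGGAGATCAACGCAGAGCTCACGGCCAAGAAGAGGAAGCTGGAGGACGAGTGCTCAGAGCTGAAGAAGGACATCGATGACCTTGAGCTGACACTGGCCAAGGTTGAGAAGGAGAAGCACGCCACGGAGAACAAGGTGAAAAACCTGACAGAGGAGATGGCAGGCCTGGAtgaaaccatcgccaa
Myh6, run shared with Myh7: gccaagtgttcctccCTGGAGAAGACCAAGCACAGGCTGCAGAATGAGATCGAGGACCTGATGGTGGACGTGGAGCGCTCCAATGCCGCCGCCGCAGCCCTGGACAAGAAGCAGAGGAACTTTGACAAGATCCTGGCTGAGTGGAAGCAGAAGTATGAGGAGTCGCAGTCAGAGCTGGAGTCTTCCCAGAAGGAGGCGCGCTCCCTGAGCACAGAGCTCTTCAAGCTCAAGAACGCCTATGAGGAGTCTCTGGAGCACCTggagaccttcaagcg

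A read that falls wholly within such a run cannot be placed by its own sequence. Myh3 was the most distinct of the 5 genes of chromosome 11, with a coding identity of 80.3 to 81.1% to its 4 neighbours, against 87.9 to 91.1% among those 4. Of all windows of 50 bases in a transcript, 4.81% of those of Myh3 occurred exactly in another gene named Myh. The share was 26.7% for Myh1, 26.9% for Myh2, 18.9% for Myh4, 21.4% for Myh8, 22.6% for Myh6 and 22.2% for Myh7. With windows of 100 bases these shares fell to between 1.15% for Myh3 and 11.4% for Myh6. By this measure Myh3 was the least open to shared reads. Of the 50-base windows of Myh4, 10.6% occurred in Myh1, 10.1% in Myh2 and 9.52% in Myh8. Of those of Myh8, 11.8% occurred in Myh2 and 9.56% in Myh1. The values of Myh1, Myh2, Myh4 and Myh8 against each other and of Myh6 against Myh7 are uncertain, since the authors' counting could divide such reads among them.

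**Figure D1:**
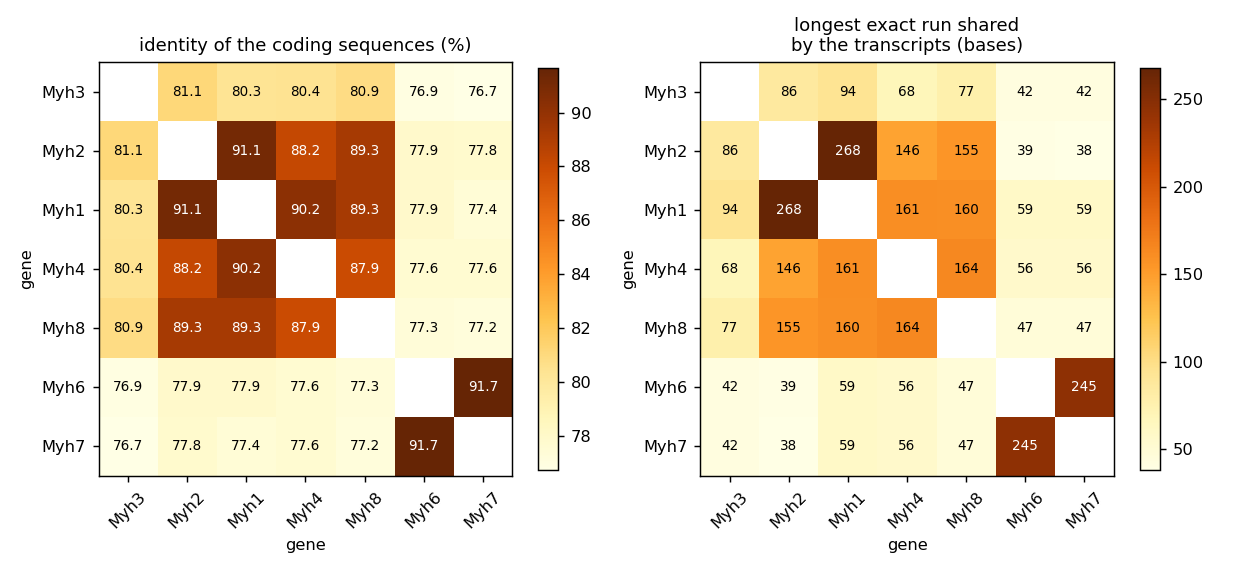
Identity of the coding sequences in percent (left) and the longest exact run shared by the transcripts in bases (right), for every pair of the 7 genes, drawn in chromosome order with the chromosome 14 pair last. Myh1 and Myh2 share 268 bases and Myh6 and Myh7 share 245, while Myh3 shares no run over 94 bases with any of them.

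The start regions of the chromosome 11 genes also differed. The 250 bases before the RefSeq start (GRCm38.p6) are given for these 5 genes because their RNA levels moved apart in the comparisons. The run TTCTAATTATATCC, 14 bases long, is the longest run common to Myh1, Myh2, Myh4 and Myh8, and it is in capitals together with TATAAA, the TATA box that TBP is known to bind. Capitals mark the strand of the gene only.
Myh3, chr11:67078050-67078299, plus strand: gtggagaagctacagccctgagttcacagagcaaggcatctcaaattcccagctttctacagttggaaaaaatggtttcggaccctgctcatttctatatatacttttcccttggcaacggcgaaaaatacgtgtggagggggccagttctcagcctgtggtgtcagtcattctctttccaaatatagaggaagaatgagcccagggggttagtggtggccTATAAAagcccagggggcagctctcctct
Myh2, chr11:67170777-67171026, plus strand: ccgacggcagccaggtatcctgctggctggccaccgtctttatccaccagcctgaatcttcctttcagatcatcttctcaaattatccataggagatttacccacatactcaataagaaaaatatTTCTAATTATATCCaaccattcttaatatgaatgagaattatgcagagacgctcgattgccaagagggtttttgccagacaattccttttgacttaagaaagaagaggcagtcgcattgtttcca
Myh1, chr11:67199852-67200101, plus strand: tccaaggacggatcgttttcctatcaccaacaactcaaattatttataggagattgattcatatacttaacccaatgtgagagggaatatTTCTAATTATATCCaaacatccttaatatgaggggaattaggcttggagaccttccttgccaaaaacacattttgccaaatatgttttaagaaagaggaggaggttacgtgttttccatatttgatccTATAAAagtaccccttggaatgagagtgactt
Myh4, chr11:67237562-67237811, plus strand: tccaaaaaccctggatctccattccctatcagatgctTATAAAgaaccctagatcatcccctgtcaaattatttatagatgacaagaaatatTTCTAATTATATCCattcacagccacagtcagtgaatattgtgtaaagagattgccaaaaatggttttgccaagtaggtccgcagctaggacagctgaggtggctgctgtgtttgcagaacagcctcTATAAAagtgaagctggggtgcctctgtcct
Myh8, chr11:67276874-67277123, plus strand: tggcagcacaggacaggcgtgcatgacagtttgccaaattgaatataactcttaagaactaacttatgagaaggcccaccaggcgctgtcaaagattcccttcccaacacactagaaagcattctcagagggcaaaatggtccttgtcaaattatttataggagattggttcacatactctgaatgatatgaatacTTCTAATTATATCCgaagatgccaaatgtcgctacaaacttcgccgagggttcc

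The 14-base run began 160 bases before the start in Myh1, 125 in Myh2, 158 in Myh4 and 54 in Myh8, and no copy was found in the 250 bases of Myh3, Myh6 or Myh7. It was present, on either strand, in 4 of 32851 RefSeq promoters of this length, or 0.0122%, and those 4 were the promoters from which it had been taken. TATAAA on either strand was found in 4 of the 7 promoters and in 12.4% of all promoters. On the strand of the gene, the match nearest to the start began 32 bases before the start in Myh1, 29 in Myh3 and 31 in Myh4, and Myh8 held only a match on the opposite strand. The E box CANNTG, the letters bound by MyoD and myogenin, was found in 5 of 7 against 66.2% of all promoters, and the MEF2 box in Myh1, Myh4 and Myh8, 3 of 7 against 2.92%. The TATAAA matches on the opposite strand lay within these MEF2 boxes. Such matches are letters in a window, and the starts are annotated ones.

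All levels below are FPKM, that is, fragment numbers scaled by the length of the transcript and the size of the library, as the authors' Cuffdiff run gave them, so that levels of different genes are compared per length. Folds were taken as log2 ratios of treated to control with 0.01 FPKM added to each value. A gene passed the filter where either column reached 1 FPKM, and it was called lower or higher where it changed at least 2-fold. The control libraries were estimated at 21900000 fragments at day 0, 29900000 at day 6, 18100000 at day 8 and 7830000 in the USP10 table, and the USP10 library at 27700000. Huwe1 itself was at 38.3 FPKM in the control and 15.2 with the hairpins at day 0, at 35.1 and 21.9 at day 6 and at 55.4 and 33.0 at day 8, and Usp10 was at 10.3 and 38.3 FPKM in the USP10 table. Usp10 was also higher with Huwe1 knockdown at day 6, at 13.2 and 35.4 FPKM (log2 ratio 1.42), while it was at 68.5 and 64.2 at day 0 and at 14.5 and 13.1 at day 8. The muscle markers Des and Myod1 were present in every column, while the cardiac markers Ryr2 and Nppa did not exceed 0.0176 and 0.243 FPKM and adipocyte Adipoq was listed at 0 in every column. Other markers of these lists were present. Myl4, which is on both the cardiac and the sarcomeric light chain lists, was at 650 to 979 FPKM in the differentiated controls. Cardiac Tnni3 was at 5.01 to 9.24 FPKM there. Over all columns cardiac Gata4 was at 1.52 to 6.74 FPKM and adipocyte Pparg at 2.83 to 14.6, and Fabp4 reached 4.68.

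In proliferating myoblasts the 7 genes were close to silent. In the day 0 control Myh3 was at 0.0795 FPKM, Myh1 at 0.00719 and Myh7 at 0.00715, and Myh2, Myh4, Myh6 and Myh8 were listed at 0. These values stood for about 10.5 fragments of Myh3 and about 1 fragment each of Myh1 and Myh7. For the genes listed at 0, a limit of 3 fragments stood for 0.0222 to 0.0227 FPKM. The upper ends of their 95% exact Poisson intervals were 0.0273 to 0.0280 FPKM. These limits and the intervals below cover counting error only. With the hairpins Myh3 was at 0.533 FPKM, Myh1 at 0.158, Myh4 at 0.0508, Myh7 at 0.0211, Myh2 at 0.0132, Myh8 at 0.0130 and Myh6 at 0.00333. The knockdown value of Myh3 lay above the 95% exact Poisson interval of the control, 0.0415 to 0.149 FPKM, and that of Myh1 above its interval of 0.000190 to 0.0418. Since 0 of the 7 genes reached 1 FPKM, 0 were called, against 1.69% of 10874 genes called lower and 1.90% called higher in this table. Without the filter 5 of the 7 were called higher, against 7.3% of 23417 genes, all from levels under 1 FPKM.

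**Figure D2:**
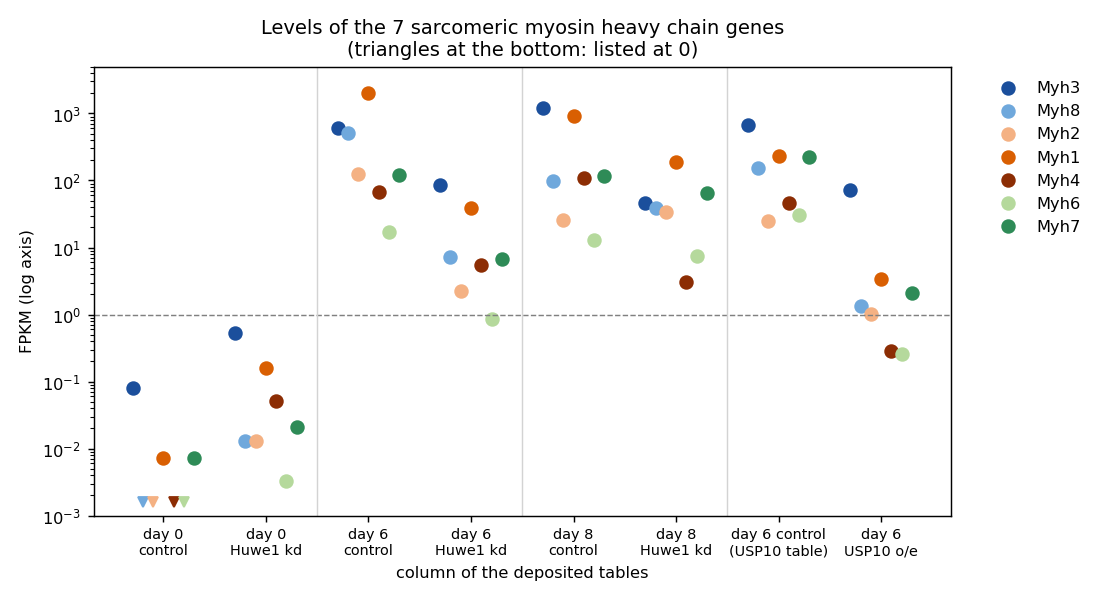
FPKM (log axis) of the 7 genes in each of the 8 deposited columns, grouped by table; kd stands for knockdown, o/e for overexpression, triangles for values listed at 0 and the dashed line for 1 FPKM. All points at day 0 lie under 1 FPKM, and every control column at day 6 and day 8 lies above 10 FPKM.

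At day 6 of differentiation all 7 genes were expressed in the control and all were lower with Huwe1 knockdown. The control levels spanned from 2029 FPKM for Myh1, the fast IIx chain, to 17.3 FPKM for Myh6, the alpha cardiac chain. Together they summed to 3484 FPKM in the control and 147 FPKM with the hairpins, a 23.7-fold difference. All 7 were called lower, against 13.4% of 11695 genes, and 0 were called higher, against 17.6%. Their median log2 ratio was -4.31, with all genes at -0.01.

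The developmental chains did not keep together. Embryonic Myh3 fell from 616 to 86.2 FPKM (log2 ratio -2.84) and the smallest decrease of the 7. Perinatal Myh8 fell from 507 to 7.22 FPKM (log2 ratio -6.13) and the largest decrease. Myh3 and Myh8 were thus within 1.5-fold of each other in the control column and about an order of magnitude apart in the knockdown column, where Myh8 was at 8.38% of Myh3 instead of 82.3%.

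Among the adult fast chains Myh1 fell from 2029 to 38.3 FPKM (log2 ratio -5.73), and Myh2 from 126 to 2.21 FPKM (log2 ratio -5.83.) Myh4, the IIb chain of the fastest fibers, fell from 66.8 to 5.53 FPKM (log2 ratio -3.59.) The 3 together fell 48.3-fold, from 2221 to 46.0 FPKM. Slow Myh7 fell from 122 to 6.78 FPKM and Myh6 from 17.3 to 0.864 FPKM, log2 ratios of -4.17 and -4.31. With the 5 chromosome 11 genes summed, which cancels any reads exchanged among them, the fall was from 3345 to 139 FPKM (log2 ratio -4.58.)

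In day 8 myotubes, where the hairpins were introduced after differentiation had begun, the 7 genes split. The control levels ran from 1218 FPKM for Myh3 to 12.9 FPKM for Myh6. The sum was 2497 FPKM in the control and 385 FPKM with the hairpins, a 6.48-fold difference. Of the 7, 4 were called lower, against 10.0% of 11755 genes, 0 were called higher, against 7.89%, and 3 stayed within 2-fold. The median log2 ratio of the 7 was -1.31, with all genes at 0.000873, and they spread over 5.55 log2 units, against 3.29 at day 6.

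Myh4 fell from 110 to 3.10 FPKM (log2 ratio -5.15), and Myh3 from 1218 to 45.4 FPKM (log2 ratio -4.74.) These were the largest decreases, and only 0.289% and 0.408% of the genes tested in this table had lower ratios. Myh1 fell from 918 to 191 FPKM (log2 ratio -2.26), and Myh8 from 96.6 to 38.8 FPKM (log2 ratio -1.31.) The slow and cardiac chains stayed inside 2-fold, with Myh7 at 116 and 65.7 FPKM and Myh6 at 12.9 and 7.40 FPKM, log2 ratios of -0.82 and -0.80. Myh2, the IIa chain of oxidative fast fibers, was at 25.3 FPKM in the control and 33.3 FPKM with the hairpins, a log2 ratio of 0.40. Its control value had a 95% exact Poisson interval of 24.4 to 26.3 FPKM, so counting error in the control alone does not cover the knockdown value.

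Reads shared between Myh1 and Myh2 could not be separated from these tables, so the value of Myh2 was also set beside sums and ratios. The 5 chromosome 11 genes together went from 2368 to 312 FPKM (log2 ratio -2.92.) Myh2 stood at 2.75% of Myh1 in the control and at 17.4% with the hairpins. Over the 6 columns of differentiated cells this ratio ranged from 2.75% to 29.7%, and the ratio of Myh4 to Myh1 from 1.62% to 20.0%. The levels of these near-identical genes thus did not track each other at a fixed ratio.

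With USP10 overexpression all 7 genes were lower at day 6, and 6 of them reached log2 ratios under -4.5. The control of this table had Myh3 at 676 FPKM, Myh1 at 235, Myh7 at 223, Myh8 at 152, Myh4 at 46.9, Myh6 at 30.5 and Myh2 at 24.8. With USP10 the sum fell from 1389 to 81.3 FPKM, a 17.1-fold difference. All 7 were called lower, against 10.0% of 11482 genes, and 0 higher, against 9.70%. The median log2 ratio was -6.74, with all genes at 0.05.

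Embryonic Myh3 again fell least, to 72.9 FPKM (log2 ratio -3.21.) Myh4 fell most, to 0.287 FPKM (log2 ratio -7.30.) Of the others, Myh6 fell to 0.255 FPKM, Myh8 to 1.33, Myh7 to 2.09, Myh1 to 3.38 and Myh2 to 1.00, with log2 ratios of -6.85, -6.83, -6.74, -6.11 and -4.62. The deep USP10 library still held about 47.9 fragments of Myh4 and 43.1 of Myh6, with 95% exact Poisson intervals of 0.212 to 0.382 and 0.184 to 0.342 FPKM. All but Myh3 fell together from 712 to 8.33 FPKM, or 85.5-fold, while Myh3 fell 9.27-fold.

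**Figure D3:**
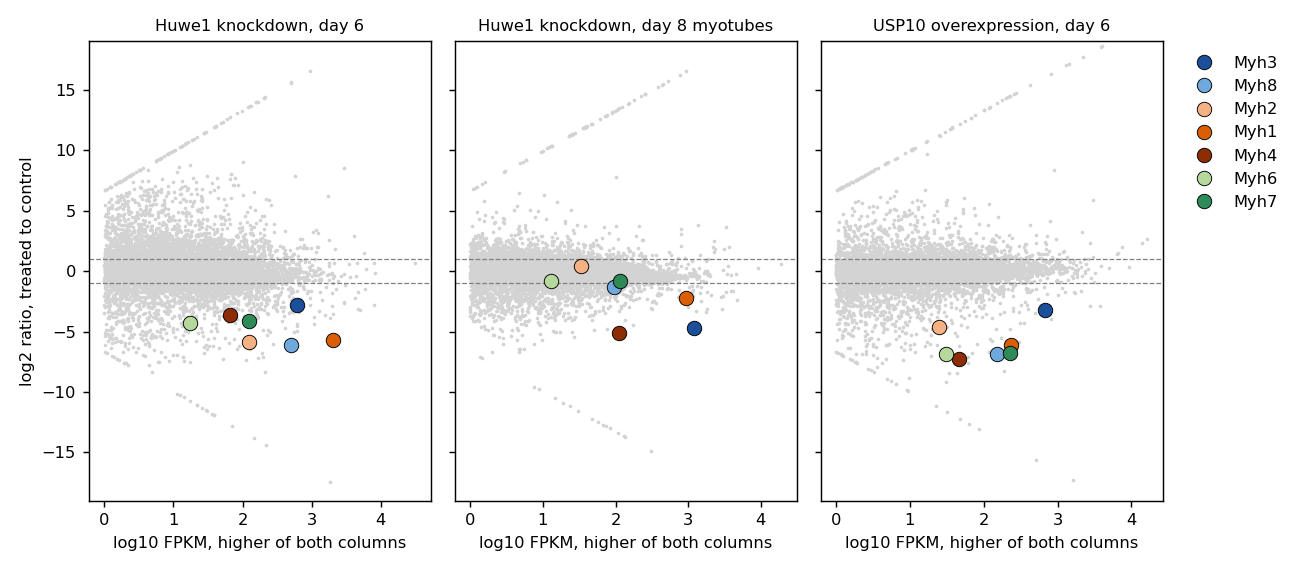
Log2 ratio of treated to control against the log10 of the higher FPKM of both columns for every gene that passed the filter (grey) and for the 7 genes (colored), in the 3 tables of differentiated cells; dashed lines mark 2-fold, and the diagonal rims are genes at or near 0 in a column. All 7 lie under the lower dashed line with Huwe1 knockdown and with USP10 at day 6, while Myh2, Myh6 and Myh7 lie between the lines in day 8 myotubes.

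The mix of chains in a column was compared next, as the share of each gene in the summed FPKM of the 7, because the scale of a table cancels in such a share. In the day 6 control Myh1 made up 58.2%, Myh3 17.7%, Myh8 14.6%, Myh2 3.61%, Myh7 3.50%, Myh4 1.92% and Myh6 0.496%. With Huwe1 knockdown Myh3 became the leading chain at 58.6%, Myh1 stood at 26.0%, and Myh8, Myh7 and Myh4 held 4.91%, 4.61% and 3.76%. The share of Myh3 thus rose by 40.9 percentage points while its level fell 7.15-fold.

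With USP10 Myh3 also gained share and Myh1, Myh8 and Myh2 lost it, while Myh4, Myh6 and Myh7, which had gained 1.84, 0.0918 and 1.10 points with Huwe1 knockdown at day 6, changed by -3.02, -1.88 and -13.5 points. Myh3 held 48.7% in the control of that table and 89.7% with USP10, a rise of 41.0 points. Myh1 went from 16.9% to 4.15%, Myh7 from 16.1% to 2.57%, Myh8 from 10.9% to 1.63% and Myh4 from 3.37% to 0.354%. The fragment share of Myh3 in the USP10 library had a 95% Wilson interval of 89.1 to 90.1%, and that in its control one of 47.9 to 48.6%.

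In day 8 myotubes Myh3 lost share and Myh1, Myh2 and Myh8 gained it, the reverse of day 6, while Myh6 and Myh7 gained share at both times. Myh3 held 48.8% in the control and 11.8% with the hairpins, a change of -37.0 points. Myh1 rose from 36.8% to 49.7%, Myh7 from 4.64% to 17.1%, Myh8 from 3.87% to 10.1% and Myh2 from 1.01% to 8.65%, while Myh4 went from 4.41% to 0.804%. Of 7 genes only Myh3 and Myh4 lost share. The contrast between day 6 and day 8 could not be tested, and it also sets different hairpins and different controls side by side.

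**Figure D4:**
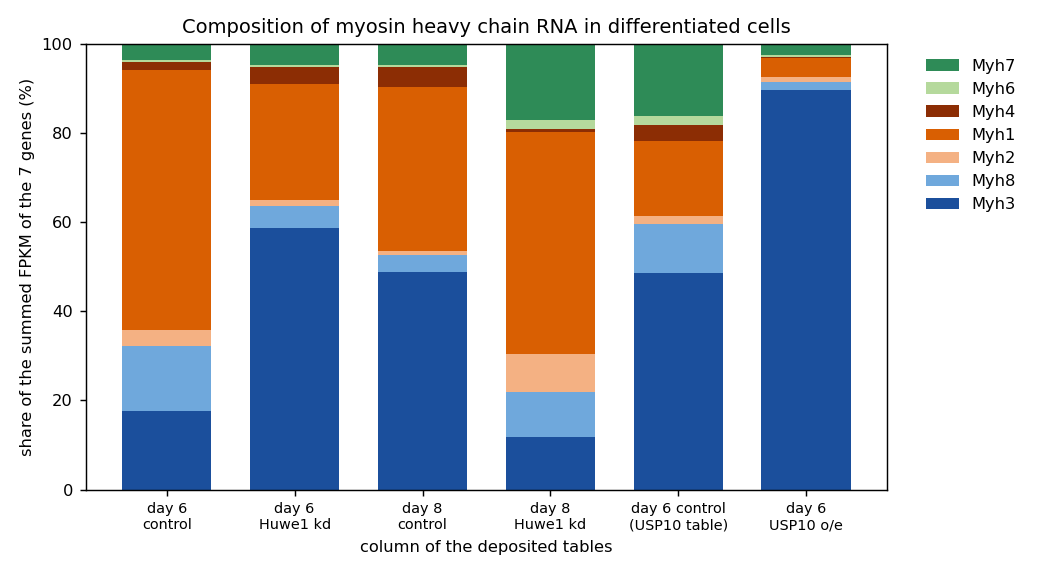
Share of each of the 7 genes in their summed FPKM, in percent, for the 6 columns of differentiated cells (kd, knockdown; o/e, overexpression). Myh3 widens from 17.7% to 58.6% with Huwe1 knockdown and from 48.7% to 89.7% with USP10 at day 6, and narrows from 48.8% to 11.8% in day 8 myotubes.

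The order of levels reflected this. Myh1 led in the day 6 control, followed by Myh3, Myh8, Myh2, Myh7, Myh4 and Myh6. Myh3 led in the day 6 knockdown, in the day 8 control, and in both columns of the USP10 table. In the day 8 knockdown Myh1 led, followed by Myh7 at 65.7 FPKM and then Myh3 at 45.4. Myh2 and Myh7 were neighbours in the day 6 control at 126 and 122 FPKM, and their 95% counting intervals, 124 to 128 and 121 to 124 FPKM, did not overlap, though biological spread was not measured.

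The 2 day 6 controls were far apart in this gene family. Both are labelled as day 6 cells without Huwe1 hairpin, but the library behind the control of the USP10 table could not be mapped to a sample. Myh1 was 8.65-fold, Myh2 5.07-fold, Myh8 3.34-fold and Myh4 1.43-fold higher in the control of the Huwe1 table. Myh7 was 1.83-fold and Myh6 1.76-fold higher in the control of the USP10 table, and Myh3 differed by 1.10-fold. The tables were normalized separately, and over 11459 genes the median log2 difference between the controls was -0.07, while 19.9% of genes differed at least 2-fold. Myh1 fell 53.0-fold with knockdown and 69.3-fold with USP10 at day 6, more than the gap between the controls. At day 8 Myh1 fell 4.80-fold and Myh8 2.49-fold, less than the gaps of these genes between the day 6 controls. Shares differed widely between the 2 controls too. Myh1 held 58.2% in the Huwe1 table and 16.9% in the USP10 table, and Myh3 17.7% and 48.7%. The day 6 knockdown share of Myh1, 26.0%, lay between the 2 controls, and that of Myh3, 58.6%, lay above both.

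Myh6 and Myh7 kept nearly the same ratio throughout. Myh6 was at 11.1 to 14.1% of Myh7 in all 6 columns of differentiated cells, a spread of 1.27-fold, while the level of Myh7 itself ran from 2.09 to 223 FPKM. By comparison, the ratio of Myh1 to Myh3 spread 91.0-fold over the same columns and that of Myh8 to Myh1 6.17-fold. Of the 50-base windows of Myh6, 22.6% occurred in another Myh gene, and the part of such shared sequence in the steady ratio was not tested. Of 8 cardiac markers 3 passed at day 6, with 2 lower and 1 higher, 4 at day 8, with 1 lower, and 4 with USP10, with 3 lower and 1 higher. Genes called lower made up 13.4%, 10.0% and 10.0% of all genes in these tables, and those called higher 17.6%, 7.89% and 9.70%. Among the cardiac markers Ryr2, the cardiac calcium release channel, did not exceed 0.0176 FPKM, the natriuretic peptide Nppa 0.243 and the atrial light chain Myl7 0.303, while Tnni3, cardiac troponin I, was at 5.01 to 9.24 FPKM in the differentiated controls. The summed level of the 8 ran from 664 to 986 FPKM in those controls and from 177 to 315 in the treated columns. It is mostly that of Myl4, which is also on the sarcomeric light chain list, so the sum is no measure of cardiac expression.

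Transcripts that lie within or beside the genes moved with them. D830015G02Rik, the antisense RNA also known as Mhrt, is listed within the Myh7 locus and was at 8.34 FPKM in the day 6 control and 0.422 with knockdown, at 9.10 and 5.36 at day 8, and at 11.2 and 0.158 in the USP10 table. Its log2 ratios, -4.27, -0.76 and -6.06, lay near those of Myh7, and it stood at 5.03 to 8.15% of Myh7 in the 6 columns. The libraries were directional according to the sample labels, but whether counting used the strand was not given in the sources used here, so reads of Myh7 and of its antisense partner may not have been told apart. On chromosome 11 the noncoding 2310065F04Rik, which lies between Myh3 and Myh2, went from 4.0 to 0.0952 FPKM at day 6 and from 2.13 to 0.400 at day 8, and in the USP10 table from 0.742 to a value listed at 0. Myh13, the extraocular chain next to Myh8, was at 1.11 and 0.0280 FPKM at day 6. The outer neighbours differed less: Ngdn beside Myh7 had log2 ratios of -0.40, 0.18 and 0.03, and Sco1 beside Myh3 of -1.14, -0.73 and -0.21. The microRNA genes Mir208a and Mir208b, set in introns of Myh6 and Myh7, were listed at 0 in every column.

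Of the other myosin heavy chains, the non-muscle ones did not move together. Non-muscle Myh9, a chain of stress fibers, rose from 207 to 539 FPKM at day 6, was at 427 and 658 at day 8 and at 353 and 629 with USP10. Non-muscle Myh14 fell from 13.8 to 6.30 FPKM at day 6, was at 4.71 and 2.60 at day 8 and rose from 3.97 to 10.6 with USP10. Non-muscle Myh10 was at 18.3 and 23.0 FPKM at day 6, and smooth muscle Myh11 did not exceed 0.232 FPKM. Myh13 was lower at day 6, as given above, and Myh7b, an ancient slow-type chain, fell from 3.98 to 0.616 FPKM at day 6 and from 11.7 to 2.52 at day 8. Over this list, 3 of the 5 genes that passed were called lower and 1 higher at day 6, against 13.4% and 17.6% of all genes. At day 8, 1 of 4 was lower, against 10.0%, and with USP10 1 of 3, Myh14, was higher, against 9.70%.

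The light chains that sit on the myosin neck fell less than the heavy chains at day 6. Of 7 listed genes 5 passed and 5 were called lower at day 6, their median log2 ratio being -1.87 against -4.31 for the heavy chains. The fast alkali light chain Myl1 fell from 7977 to 1132 FPKM, and the fast regulatory light chain Mylpf from 5865 to 2146, the smallest decrease of the list at -1.45. At day 8 the same number, 5 of 5, were called lower, the median being -2.11, below the heavy chain median of -1.31, and Mylpf was there the lowest, at -2.43. With USP10 4 of 5 were called lower, the median being -1.59, and Mylpf, at 2857 and 1953 FPKM, stayed within 2-fold. Among all genes 13.4% were lower at day 6, 10.0% at day 8 and 10.0% with USP10.

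The list of thick filament and M-band partners, which also holds ubiquitin ligases and thin filament genes such as Lmod2, was lower nearly throughout. At day 6, 15 of 16 that passed were lower, the median of their log2 ratios being -2.96. At day 8 the count was 13 of 16, with a median of -1.37, and with USP10 14 of 16, with a median of -2.34. The shares of all genes called lower were 13.4% at day 6, 10.0% at day 8 and 10.0% with USP10. The fast myosin-binding protein Mybpc2 fell from 22.7 to 0.657 FPKM at day 6, from 8.82 to 1.44 at day 8 and from 2.50 to 0.0385 with USP10, while slow Mybpc1 had log2 ratios of -3.78, -1.42 and -6.15. Titin, the giant scaffold (Ttn), fell from 64.6 to 9.43 FPKM at day 6 and from 96.0 to 21.9 at day 8. Lmod2, which lengthens thin filaments, had log2 ratios of -1.49, -0.36 and -0.35.

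A list for myosin folding and assembly, which also holds other muscle proteins, was lower in part. Of its 11 genes, 6 of 11 that passed were lower at day 6, 4 of 10 at day 8 and 6 of 11 with USP10. Of all genes 13.4%, 10.0% and 10.0% were lower. From the list 0 were higher, against 17.6%, 7.89% and 9.70%. The 6 at day 6 were Unc45b, Smyd1, Murc, Sypl2, Klhl40 and Klhl41, and the last 4 are not myosin chaperones. Unc45b, the muscle myosin chaperone, fell from 78.2 to 3.87 FPKM at day 6, and Smyd1, a methyltransferase that works with it, from 52.9 to 4.03. At day 8 Smyd1 fell from 43.5 to 9.85 FPKM. The general chaperone Hsp90aa1 had log2 ratios of 0.29, 0.40 and 0.32, and Unc45a, the general counterpart of Unc45b, of 0.10, 0.39 and 0.34. The general chaperones Hsp90ab1 and Hspa8 stayed within 2-fold in the 3 tables, with log2 ratios of -0.37 and -0.45 at day 6. Klhl40, a muscle protein that stabilizes thin filament components, was at 70.7 and 8.57 FPKM at day 6 but at 55.3 and 66.2 at day 8. The medians of the list were -2.93, 0.18 and -1.53.

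Most genes of the fiber-type lists, which also hold genes outside the filaments, were lower in each table of differentiated cells. At day 6, 12 of 12 fast fiber genes and 9 of 10 slow fiber genes that passed were lower, with medians of -3.33 and -2.67. At day 8, 12 of 12 fast and 9 of 10 slow genes were lower, with medians of -2.85 and -2.20, so that slow Myh7 at -0.82 and fast Myh2 at 0.40 stood above the medians of both lists. With USP10, 9 of 11 fast and 9 of 9 slow genes were lower, with medians of -2.78 and -2.68. For all genes the shares called lower were 13.4% at day 6, 10.0% at day 8 and 10.0% with USP10. The calcium buffer parvalbumin (Pvalb), of fast fibers, fell from 82.6 to 0.951 FPKM at day 6, from 26.4 to 1.70 at day 8 and from 19.4 to 0.141 with USP10. Slow troponin T (Tnnt1) had log2 ratios of -3.85, -2.45 and -3.93, and the slow calcium pump Atp2a2 of -1.78, -0.53 and -1.01. The fast and slow lists share genes with the light chain and thick filament lists.

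Of the 18 regulators of fiber type that passed, 11 were lower and 1 higher at day 6, where 13.4% and 17.6% of all genes were. The counts were 7 and 1 at day 8, against 10.0% and 7.89%, and 9 and 1 with USP10, against 10.0% and 9.70%. Myogenin (Myog), which drives terminal differentiation, fell from 619 to 27.1 FPKM at day 6, from 392 to 148 at day 8 and from 305 to 28.8 with USP10. Mef2c, a partner of the myogenic factors, had log2 ratios of -3.25, -3.60 and -3.76. Prox1, which is known to act in the slow fiber program, fell from 5.73 to 0.172 FPKM at day 6 and from 4.46 to 0.159 with USP10, but was at 6.02 and 11.4 FPKM at day 8. Vgll2, a cofactor of TEAD proteins, rose from 0.627 to 15.1 FPKM at day 6 and from 5.09 to 44.9 with USP10, and fell from 4.82 to 0.0458 at day 8. In myoblasts at day 0, 4 of 7 light chains, 3 of 18 thick filament partners, 6 of 12 fast and 4 of 12 slow fiber genes reached 1 FPKM in either column.

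**Figure D5:**
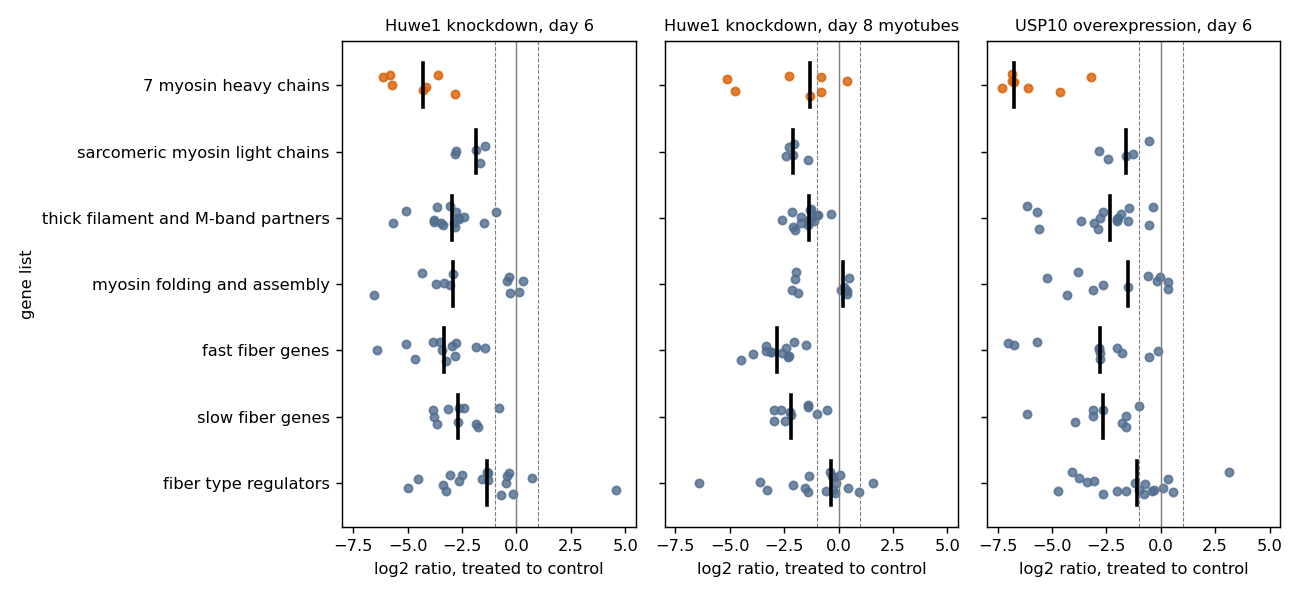
Log2 ratio of treated to control of the genes of 6 related lists (blue) beside the 7 myosin heavy chains (orange) that passed the filter, in the 3 tables of differentiated cells; black bars are medians, dashed lines mark 2-fold, and the vertical scatter within a list is only for legibility. The heavy chains have medians of -4.31, -1.31 and -6.74.

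The genes closest to each member in the 3 log2 ratios were sought among 5844 genes that reached 10 FPKM in a column of each of the 3 tables, by Euclidean distance in log2 units over 3 ratios. The nearest to Myh1 was Actn2, the alpha-actinin of the Z disc, at a distance of 0.51, followed by Ankrd23 and Afap1l1. The nearest to Myh7 was Myh6 at 0.18, followed by Mybpc1 at 0.93 and myoglobin (Mb) at 1.01. Myh8 was nearest to Rbm24, a muscle splicing factor, at 0.72, and to Actn2 at 0.98. Myh4 was nearest to Casq1, the calsequestrin of fast fibers, at 1.39, with Tcap and Fgf21 next. Myh3 was nearest to Mef2c at 1.33, then to Adprhl1 and Pstpip1, and the closest other member, Myh4, was 4.17 away. Myh2 had Clip4 at 1.21, Smim20 and Gpx3 as its nearest genes.

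Markers of other cells moved in the same tables, but several were also expressed by C2C12 myoblasts. In the day 0 control the 6 fibroblast markers summed to 333 FPKM. Col3a1 was at 170 FPKM there, Col1a1 at 144, Ly6a at 15.5, Pdgfra at 2.37 and Dcn at 1.27, and Thy1 was listed at 0. The level of these genes alone therefore does not identify another cell type. Among all genes, 17.6% were called higher at day 6, 7.89% at day 8 and 9.70% with USP10, and 13.4%, 10.0% and 10.0% lower. Of 6 fibroblast markers 5 passed at day 6 and 5 of 5 were higher, their summed level going from 123 to 4368 FPKM. With USP10 2 of 5 were higher and the sum went from 483 to 4034 FPKM, and at day 8 2 of 5 were higher, 1 was lower and the sum went from 500.4 to 796 FPKM. Decorin (Dcn) alone was at 7.94 and 2987 FPKM at day 6, at 50.3 and 3037 with USP10 and at 4.19 and 8.75 at day 8, while Thy1 did not exceed 0.0764 FPKM in any column. Their part in the fall of the myosins was not tested. Myf5, a marker of undifferentiated myoblasts, rose from 3.51 to 18.5 FPKM at day 6 and from 4.79 to 20.2 with USP10, and was at 7.36 and 8.14 at day 8. Of the 7 skeletal lineage markers, which include Myf5 and Myog, 4 were lower and 1 higher at day 6, 4 and 0 at day 8, and 2 and 1 with USP10. Of 5 smooth muscle markers 3 passed at day 6, with 0 lower, 4 at day 8, with 2 lower, and 3 with USP10, with 1 lower. Of 4 adipocyte markers 2 passed at day 6, 1 at day 8 and 2 with USP10, and 0 were lower in any of the 3 tables. Fabp4 was higher at day 6, at 0.348 and 4.68 FPKM, and with USP10, at 0.535 and 3.84. In such bulk RNA a smaller number of myotubes and less myosin RNA in each myotube cannot be told apart.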

How the data were processed

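RNA was measured in 10 samples of C2C12 cells. According to the study's methods, mRNA was purified on oligo(dT) beads, libraries were made with the ScriptSeq v2 kit and sequenced on a HiSeq instrument, reads were mapped with Tophat and compared with Cuffdiff, and the submitters' processing notes also name Bowtie2 and the mm10 build. Tool versions, the annotation and the handling of reads shared between genes were not given in the sources used here. The 4 deposited tables hold, per gene, the FPKM of each of 2 conditions as the authors' Cuffdiff run estimated them, and columns with the authors' fold change, test statistic, p-value and q-value, which were not used. All 8 FPKM columns were used. Groups came from the sample titles.

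With 1 value per condition no test, SD or leave-one-out was possible. Log2 ratios used a pseudocount of 0.01 FPKM, a filter of 1 FPKM in at least 1 column and a 2-fold call. Tables were normalized separately, so folds stayed within a table, and levels of several tables are given only as descriptions. Fragments were estimated from the lowest FPKM values of genes with 1 transcript of at least 1500 bases, and intervals on them are exact Poisson for levels and Wilson for shares. Transcripts were the longest coding ones of GENCODE M21, and promoters those of RefSeq for GRCm38.p6, in which all 7 genes were found. The computations were tested on simulated data. Other settings tried were 0.1 or 1 as the pseudocount, 5 FPKM as the minimum, 1 FPKM in both columns, no filter, centring on the median gene, summing the chromosome 11 genes, and fragments in place of FPKM for shares. Python 3.11.15, numpy 2.4.6, pandas 2.3.3, scipy 1.17.1 and matplotlib 3.10.9 were used.

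The genes and the 12 hand-written gene lists were chosen with earlier results of these data known. The text names all 7 genes, the genes of each list with the 2 lowest and 2 highest log2 ratios in a comparison, or a selection of them, genes of lists of 6 or fewer, neighbouring and overlapping genes, the 3 genes closest in log2 ratios, and Huwe1, Usp10 and Myog. Repeats of a named gene in another comparison, and Nppa, Ryr2, Myl7, Ttn, Myh11, Klhl40, Hsp90ab1 and Hspa8, were chosen after their values were seen.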

Additional observations from a re-analysis of the deposited data

Results flagged for a closer look

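Huwe1 knockdown moved values of the family in opposite directions at day 6 and in day 8 myotubes. Given here are log2 ratios of opposite sign and shares that moved by at least 10 percentage points at both times, and the shares of Myh2, Myh4 and Myh8 also changed sign by less than that. The difference was not tested, since each column is 1 value, and the hairpins, controls and time of infection also differ between these tables.

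The log2 ratio of Myh2 was -5.83 at day 6 and 0.40 at day 8. The share of Myh3 among the 7 genes changed by 40.9 percentage points at day 6 and by -37.0 points at day 8. The share of Myh1 changed by -32.2 points at day 6 and by 12.9 points at day 8. Between the day 6 controls of the Huwe1 and USP10 tables these shares also differed widely, with Myh1 at 58.2% and 16.9% and Myh3 at 17.7% and 48.7%.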

How the results depend on the processing

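The counts of genes called lower, 0 at day 0, 7 at day 6, 4 at day 8 and 7 with USP10, did not change with both other pseudocounts, a minimum of 5 FPKM, no filter or centring on the median gene. With 1 FPKM required in both columns they were 0, 6, 4 and 5, since fewer genes passed, and all 6 that passed at day 6 and all 5 with USP10 were lower. With each other pseudocount and with centring, all 21 single log2 ratios kept their direction and their side of the 2-fold call. Summing the 5 chromosome 11 genes gives 1 value per table, so it re-estimates no single gene. Only Myh2 at day 8 differed from the sum in direction, at 0.40 against -2.92, by construction, since the sum is mostly Myh1 and Myh3. The widest gap between a gene and the sum was that of Myh4 with USP10, at -7.30 and -3.85. A pseudocount of 1 moved Myh6 in the USP10 table from -6.85 to -4.65, the largest shift by a pseudocount, and centring moved no ratio by more than 0.05. The pseudocount of 1 also changed the order in the USP10 table. Myh7 then fell most, at -6.19, with Myh4 at -5.22 and Myh2 at -3.69. Shares computed from fragments in place of FPKM differed by at most 0.445 percentage points. At day 0 single log2 ratios are not given, because 0 of the 7 genes reached 1 FPKM. With no filter 5 of the 7 were called higher there, and 0 lower.

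No paired analysis was possible because the tables pool the replicates of a condition in 1 column, and for the same reason leaving out single libraries was not possible. Spread between cultures is therefore unknown, depth of the pooled columns could not be estimated, and the counting intervals, which are narrow at day 6 and day 8, say nothing of it.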
